A study of Mus musculus with 15 samples.

Results

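The comparison set E0771 cells, a mouse mammary carcinoma line, that carried wild-type Malt1 (Malt1_WT) against E0771 cells that carried an empty vector (Vector). Each group had 3 RNA sequencing libraries. Both groups were cultured in the absence of T cells, and the labels name no drug, no time course and no other allele for either. These 6 libraries belong to a set of 15. The remaining libraries came from cells with mutant forms of Malt1. They were used here only in the filter on low counts, the scaling and the estimate of the spread between libraries. Every gene of the deposited table was taken: of 55571 gene rows, 14571 held enough counts to be tested. The labels do not say whether a group is a pool or a clone of cells, which promoter drives the construct, or whether the libraries of a group are separate cultures. The p-values therefore measure no more than the spread between the libraries sequenced, and that spread may be technical only.

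MALT1 is a scaffold and a protease. In lymphocytes it sits with BCL10 behind the antigen receptors, and in epithelial and other cells a sister CARD protein can couple it to G protein-coupled and growth factor receptors. As a scaffold it recruits TRAF6 and the IKK kinases, which free NF-kB from its IkB inhibitors, and JNK signalling to AP-1 can run from the same complex. As a protease it cuts several negative regulators of these pathways, among them proteins that destroy cytokine mRNAs.

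The Malt1 transcript itself stood at 208, 193 and 206 CPM in Malt1_WT libraries, against 26.4, 30.2 and 27.8 CPM in Vector libraries (CPM, counts per 1000000 after scaling each library by the TMM method). All 3 Malt1_WT libraries lay above all 3 Vector libraries (log2 fold change 2.85 ± 0.05 (SE), adjusted p = 7.53e-27). A count per gene cannot separate transcripts of the construct from those of the cells' own gene. Library totals ran between 15471746 and 17598416 counts in Malt1_WT and between 16076739 and 21219593 counts in Vector. The common biological coefficient of variation over the fit was 4.61%. Fold changes are Malt1_WT over Vector on the log2 scale, and a gene is called when edgeR's quasi-likelihood test gave an adjusted p under 0.05. In bulk RNA, fewer cells with a transcript and less of it in each cell cannot be told apart.

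The line was checked against markers of its labelled origin. Of 17 mammary epithelial markers, 4 passed the filter on low counts, and 1 of these was called higher, 2 lower and 1 not called. Foxa1 was the higher one, with 15.2 CPM in Malt1_WT against 6.54 CPM in Vector. Esr1 had 1.16 CPM in Malt1_WT against 1.01 CPM in Vector and was not called. Krt8, a keratin of simple epithelium, had 89.7 ± 4.0 CPM in Malt1_WT against 117 ± 8.6 CPM in Vector, and Epcam had 6.01 ± 0.40 CPM in Malt1_WT against 9.75 ± 1.2 CPM in Vector. Cdh1, Krt18 and Krt14, which mark mammary epithelium, were near 0, with 0.309, 0.375 and 0.209 CPM in Malt1_WT against 0.429, 0.357 and 0.262 CPM in Vector, and Krt5 had no count in either group. Vim, an intermediate filament of mesenchymal cells, had 2449 ± 49 CPM in Malt1_WT against 3802 ± 127 CPM in Vector. The 17 epithelial markers summed to 114 CPM in Malt1_WT and 136 CPM in Vector. The 20 macrophage and dendritic cell markers summed to between 75.4 and 79.2 CPM in Malt1_WT, against 46.5 to 49.4 CPM in Vector. In this list 5 genes were called higher and 1 lower of 10 tested. Adgre1, Cd14, Cd68, Mrc1 and Itgax had 1.23, 23.5, 25.2, 2.60 and 4.36 CPM in Malt1_WT, against 0.133, 8.04, 12.1, 0.697 and 2.23 CPM in Vector. Fcer1g had 12.96 CPM in Malt1_WT against 16.9 CPM in Vector. Ptprc, Spi1, Tyrobp and Itgam, also on this list, were near 0 in both groups. They had 0.0838, 0.062, 0.0192 and 0.183 CPM in Malt1_WT against 0.0327, 0.129, 0.049 and 0.19 CPM in Vector. The 14 neutrophil and mast cell markers summed to 67.9 CPM in Malt1_WT and 28.4 CPM in Vector, most of it S100a8 (63.2 CPM in Malt1_WT against 22.2 CPM in Vector), with Mpo, Retnlg and Cpa3 at 0 in both. Of 3 tested in this list 2 were called higher and 1 lower, which was Ly6g (2.46 CPM in Malt1_WT against 5.82 CPM in Vector). The 19 lymphocyte markers summed to 5.44 CPM in Malt1_WT and 2.78 CPM in Vector, and the 10 endothelial ones to 143 and 115 CPM in the same order. The 10 fibroblast markers summed to 399 CPM in Malt1_WT and 419 CPM in Vector, with Pdgfra at 161 CPM in Malt1_WT against 134 CPM in Vector. The part of these genes in the results below was not tested.

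Differences between Malt1_WT and Vector were many and mostly small. Of the 14571 genes tested, 7997 (54.9%) were called, 3958 (27.2%) higher and 4039 (27.7%) lower in Malt1_WT. The libraries of the groups did not overlap for 59.4% of genes. Large changes leaned upward: 1144 genes (7.85%) were at least 2-fold higher and 526 (3.61%) at least 2-fold lower. Of larger changes, 379 genes rose and 84 fell by 4-fold or more, 163 rose and 15 fell by 8-fold or more, 60 rose and 7 fell by 16-fold or more, and 28 rose and 5 fell by 32-fold or more. The median gene had a log2 fold change of -0.01, with the middle 50% between -0.28 and 0.34. Every gene named below as having risen or fallen was called, and its Malt1_WT and Vector libraries did not overlap unless this is stated. Single values are group means ± SD over the 3 libraries. The library kit marks strand, but the strand setting of the counting is not given in the sources used here, so reads of overlapping genes cannot be told apart. Of the 512 named genes, 54 share at least 10% of their exon bases with another gene. Among those described below, shares over 25% included Gpr84 (39.48%), Kif3c (35.34%), Ramp2 (33.41%), Gpat3 (30.04%) and Kif20a (29.30%).

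**Figure D1:**
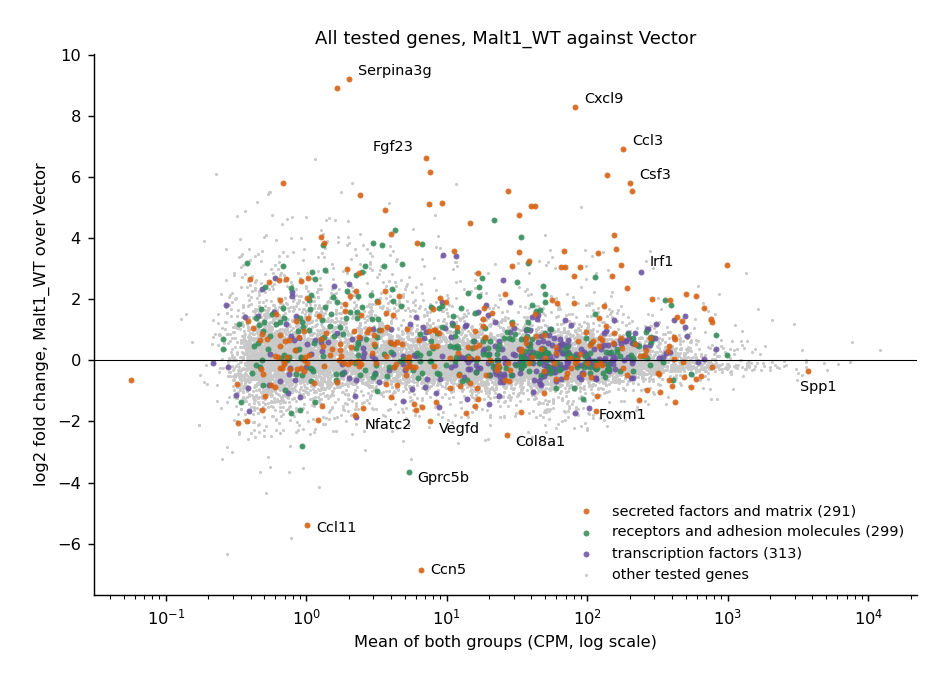
Each point is 1 of the 14571 tested genes, with the mean of the group means in CPM (log scale) on the x axis and the log2 fold change, Malt1_WT over Vector, on the y axis. Secreted factors (orange) lie along much of the upper edge of the cloud, with Cxcl9 at 8.29, and the transcription factor Irf1 stands at 2.89, while Ccn5 lies lowest at -6.87. Serpina3g, which had no count in Vector, is drawn at its fitted value, which is no bound.

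The ranking that follows covers called genes whose groups do not overlap and whose higher mean reached 5 CPM, without predicted or unnamed genes. In it the 10 largest rises were nearly all genes of secreted proteins. They were the chemokines and cytokines Cxcl9, Ccl3, Il1b, Cxcl2, Csf3, Tnf and Il1a, the hormone Fgf23 and the collagenase Mmp13. Ceacam15, a surface protein of the carcinoembryonic antigen family, completed them. Ceacam15 had 21.3, 22.2 and 24.9 CPM in Malt1_WT libraries, against 0.372, 0.123 and 0.686 CPM in Vector libraries (log2 fold change 5.77 ± 0.19 (SE), adjusted p = 2.81e-20). Its Vector libraries held next to nothing. The 10 largest falls under the same limits belonged to no single class. Beside Ccn5, a matricellular protein, they were Gprc5b (an orphan G protein-coupled receptor), Akr1cl (an aldo-keto reductase), Rgcc (a regulator of the cell cycle), Ldb2 (a LIM domain-binding cofactor), Fam83d (a mitotic spindle protein), Olfml3 (a secreted olfactomedin-like protein), Pif1 (a DNA helicase), Idh1 (the cytosolic isocitrate dehydrogenase) and Col8a1 (a short-chain collagen). Idh1 had 12.6, 12.6 and 11.2 CPM in Malt1_WT libraries, against 67.8, 70.2 and 69.3 CPM in Vector libraries (log2 fold change -2.51 ± 0.06 (SE), adjusted p = 3.20e-23). The Malt1_WT libraries sat close together far under every Vector library. Olfml3 had 9.14, 9.39 and 8.87 CPM in Malt1_WT libraries, against 57.9, 52.4 and 56.1 CPM in Vector libraries (log2 fold change -2.60 ± 0.07 (SE), adjusted p = 6.34e-22).

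Ranked by CPM gained or lost rather than by fold, other genes led. Fth1, the ferritin heavy chain that stores iron, gained most, with 9588, 8938 and 9109 CPM in Malt1_WT libraries, against 6337, 5725 and 6217 CPM in Vector libraries (log2 fold change 0.60 ± 0.05). It was followed by mt-Co1 (13533 ± 115 CPM in Malt1_WT against 10609.9 ± 312 CPM in Vector), Odc1, the first enzyme of polyamine synthesis (4148 ± 84.5 CPM in Malt1_WT against 1803 ± 36 CPM in Vector), Nos2, the inducible nitric oxide synthase (2351 ± 77.1 CPM in Malt1_WT against 322 ± 22.5 CPM in Vector), and Hspa5, the main chaperone of the endoplasmic reticulum (2920.3 ± 149 CPM in Malt1_WT against 1177 ± 19.8 CPM in Vector). Ier3, Cxcl1 and Ptges completed the 8 largest gains. The largest losses were in Vim, Hspa8, Spp1, Pkm, Top2a, Scd2, Ahnak and Eno1. These are a filament protein, a constitutive chaperone, a secreted phosphoprotein, glycolytic enzymes, a topoisomerase of dividing cells, a fatty acid desaturase and a giant scaffold protein. Ahnak had 419.7, 476 and 449.8 CPM in Malt1_WT libraries, against 1019.7, 1166 and 1029 CPM in Vector libraries (log2 fold change -1.26 ± 0.06 (SE), adjusted p = 1.78e-13).

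Presence and absence changed for 3 genes. Serpina3g and Serpina3f, inhibitors of serine and cysteine proteases, had no count in any Vector library. Serpina3g had 85, 55 and 53 counts in Malt1_WT libraries and Serpina3f had 43, 53 and 62. Set against the level that 3 counts per library would give, they were at least 25.7-fold and at least 20.9-fold higher in Malt1_WT. Such limits cover counting error only, and members of this family share sequence, so reads may be split between them. Thrsp, a regulator of fatty acid synthesis, had 0 counts in every Malt1_WT library, against 13, 8 and 11 in Vector libraries, at least 2.91-fold lower by the same measure.

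The letters of the promoters were read next, since the largest rises include textbook NF-kB, AP-1 and interferon targets. RefSeq promoters (GRCm38.p6), from 250 bases before to 50 bases after the annotated start, were matched by symbol to 10076 of the 14571 tested genes. They cover 767 of the genes at least 2-fold higher and 326 of those at least 2-fold lower. The NF-kB consensus, searched on both strands like all motifs here, was found in 10.2% of promoters of genes at least 2-fold higher, 6.44% of those at least 2-fold lower and 6.61% of all. For AP-1 (TGANTCA) the shares were 13.3%, 5.21% and 5.48% in the same order. The interferon-stimulated response element (GAAA, any 2 bases, GAAA) was found in 8.08%, 3.99% and 3.17%. The cell cycle homology region (TTTGAA), an element of genes of the G2 and M phases, was found in 13.4% of promoters of genes at least 2-fold higher, 26.4% of those at least 2-fold lower and 12.2% of all, and the CCAAT box (CCAAT) in 34.3%, 48.8% and 38.7%. A C/EBP-ATF element (TGATGNAA) stood at 4.17%, 1.84% and 2.31%, and an E2F element (GGCGGGAA) at 1.56%, 3.68% and 4.16%. A cAMP response element (TGACGTCA) stood at 2.09%, 3.07% and 3.09%, and a sterol regulatory element (TCACNCCAC) at 1.43%, 0.920% and 1.14%. Matches of AP-1 and the cell cycle homology region overlapped in 11 promoters, of the NF-kB and E2F motifs in 9, and of the CCAAT box and the cell cycle homology region in 12. Among all called genes, whatever their size, AP-1 was found in 7.04% of promoters of higher and 4.55% of lower genes, the NF-kB consensus in 7.69% and 6.37%, the interferon-stimulated response element in 4.74% and 2.54%, the cell cycle homology region in 10.6% and 13.5%, the CCAAT box in 35.8% and 42.0%, the C/EBP-ATF element in 3.30% and 1.43%, and the E2F element in 2.99% and 5.27%. A match describes letters only, and no binding was measured.

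**Figure D2:**
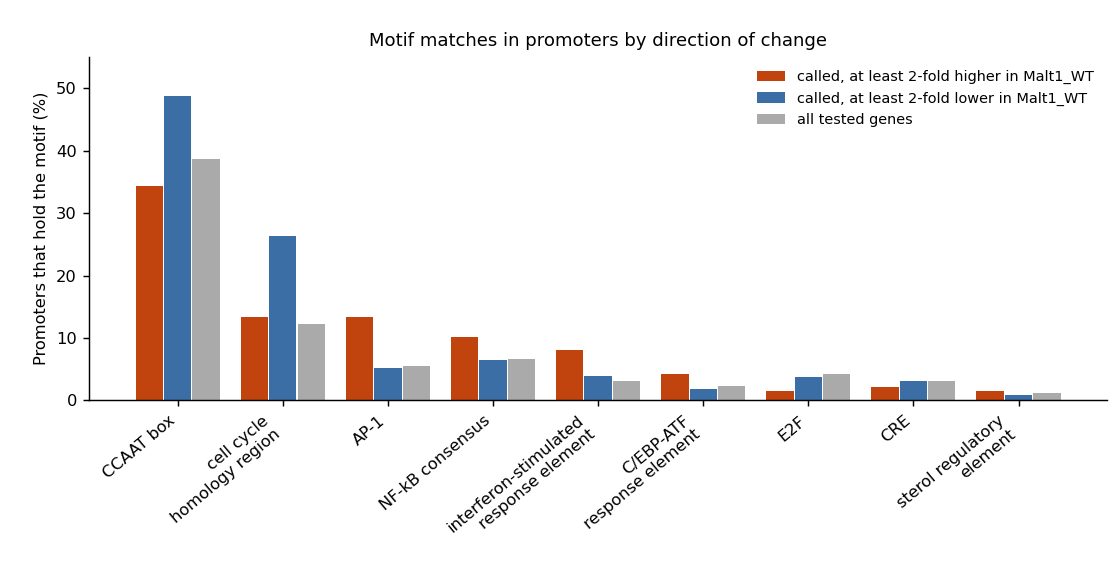
Bars give the percentage of promoters that hold each motif, on either strand, among genes called and at least 2-fold higher in Malt1_WT (red), called and at least 2-fold lower (blue) and all tested genes with a promoter (grey). AP-1 stands at 13.3%, 5.21% and 5.48% and the cell cycle homology region at 13.4%, 26.4% and 12.2%.

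The NF-kB matches are shown for the named genes with the largest changes whose promoters hold one, with the match in capitals and each sequence read 5′ to 3′ along the gene. At most 30 transcribed bases are shown. Serpina3g lies at chr12:104236017-104236116, plus strand, with the match 85 to 76 bases before the start. Cxcl2 lies at chr5:90903757-90903856, plus strand, with the match 97 to 88 bases before the start. Ceacam15 lies at chr7:16675706-16675803, minus strand, with the match 53 to 44 bases before the start and on the opposite strand.
Serpina3g: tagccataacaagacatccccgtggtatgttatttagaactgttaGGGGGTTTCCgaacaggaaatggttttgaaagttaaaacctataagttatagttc
Cxcl2: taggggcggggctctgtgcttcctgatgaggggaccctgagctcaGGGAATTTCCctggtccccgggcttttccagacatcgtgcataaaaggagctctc
Ceacam15: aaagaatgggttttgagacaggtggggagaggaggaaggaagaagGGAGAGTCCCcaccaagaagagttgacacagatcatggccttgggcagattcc

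The AP-1 matches are shown for Il1a, Mmp13 and Cxcl9, again in capitals, and had the same letters in each. In Il1a (chr2:129309973-129310029, minus strand) the match lay 12 to 6 bases before the start, and in Mmp13 (chr9:7272434-7272513, plus strand) 35 to 29 bases before it. In Cxcl9 (chr5:92328031-92328060, minus strand) it lay 31 to 37 bases after the start.
Il1a: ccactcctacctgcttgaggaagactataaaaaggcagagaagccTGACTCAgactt
Mmp13: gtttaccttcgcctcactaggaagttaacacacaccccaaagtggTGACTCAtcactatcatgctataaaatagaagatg
Cxcl9: actccaacacagTGACTCAatagaactcag

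The interferon-stimulated response element is shown for 3 genes that rose. In Mmp13 (chr9:7272323-7272422, plus strand) the match lay on the opposite strand, 146 to 137 bases before the start. Gm12185, a neighbour of interferon-inducible GTPase genes (chr11:48927203-48927302, minus strand), held it 75 to 66 bases before the start, and Cxcl10 (chr5:92349048-92349139, minus strand) 213 to 204 bases before it.
Mmp13: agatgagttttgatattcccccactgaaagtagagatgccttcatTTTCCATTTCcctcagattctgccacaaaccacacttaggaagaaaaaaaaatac
Gm12185: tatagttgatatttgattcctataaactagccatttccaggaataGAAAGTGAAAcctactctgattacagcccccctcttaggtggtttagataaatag
Cxcl10: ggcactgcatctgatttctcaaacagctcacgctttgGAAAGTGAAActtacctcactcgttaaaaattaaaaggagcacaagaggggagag

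The cell cycle homology region is shown for the named genes with the largest falls that hold it, a choice made among falls after their values were seen. The other motifs were shown for the largest changes in either direction. Serpina3g, Fgf23 and Ceacam15, which rose by more than these genes fell, also hold this element. In Fam83d (chr2:158768004-158768098, plus strand) the match lay 50 to 45 bases before the start on the opposite strand. In Cenpf (chr1:189688057-189688129, minus strand) it lay 2 to 7 bases after the start, and in Plk1 (chr7:122159453-122159482, plus strand) 30 to 35 bases after it.
Fam83d: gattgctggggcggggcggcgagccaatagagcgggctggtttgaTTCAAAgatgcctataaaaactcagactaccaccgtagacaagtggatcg
Cenpf: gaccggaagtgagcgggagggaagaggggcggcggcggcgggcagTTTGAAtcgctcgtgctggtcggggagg
Plk1: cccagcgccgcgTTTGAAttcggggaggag

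Secreted factors were more often higher than lower in Malt1_WT. Of 542 secreted and matrix genes listed, 291 passed the filter, and 146 of these were higher and 63 lower in Malt1_WT, with a median log2 fold change of 0.46 beside -0.01 over all tested genes. These are 50.2% higher and 21.6% lower, where all tested genes gave 27.2% and 27.7%. At least 2-fold changes numbered 93 higher and 27 lower, and over all tested genes 7.85% and 3.61% changed by as much. A gene that passed the filter only because Malt1_WT or only because Vector was high had to differ. The filter also took in the libraries with mutant Malt1, so a gene could pass through those alone. These counts, and those of all lists below, therefore describe the tested members and not the whole lists.

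Chemokines, which guide leukocytes by gradients, and the cytokines of the interleukin and colony-stimulating families stood highest. Among 21 tested chemokines 16 rose and 1 fell (median 2.58), and among 24 tested interleukins and colony-stimulating factors 18 rose and 1 fell (median 2.37). Beyond the top of the list, Cx3cl1, a membrane-tethered chemokine, had 60.6, 59.1 and 59.6 CPM in Malt1_WT libraries, against 4.69, 5.65 and 5.24 CPM in Vector libraries (log2 fold change 3.53 ± 0.09 (SE), adjusted p = 4.04e-23). Cxcl10, a ligand of Cxcr3 whose promoter is printed above, had 234, 189 and 230.1 CPM in Malt1_WT libraries, against 19.8, 18.9 and 18.9 CPM in Vector libraries (log2 fold change 3.50 ± 0.09 (SE), adjusted p = 7.50e-17). In both genes the lowest Malt1_WT library was several times the highest Vector library. Ccl11, or eotaxin, went the other way, with 0.0653, 0.0576 and 0 CPM in Malt1_WT libraries, against 2.18, 2.03 and 1.76 CPM in Vector libraries (adjusted p = 3.68e-09). It was the chemokine that fell, and its Malt1_WT libraries held 0 or 1 count.

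Several cytokines rose from small counts in Vector. Il12b, the p40 subunit shared by interleukins 12 and 23, had 6.79, 6.45 and 7.71 CPM in Malt1_WT libraries, against 0.465, 0.123 and 0.049 CPM in Vector libraries (log2 fold change 4.93 ± 0.37 (SE), adjusted p = 5.59e-12). Il11, a cytokine of the gp130 family, had 24.5, 28.7 and 31.3 CPM in Malt1_WT libraries, against 1.21, 1.41 and 1.18 CPM in Vector libraries (log2 fold change 4.48 ± 0.16 (SE), adjusted p = 2.95e-19). Its relatives Il6, Lif and Osm rose as well, with log2 fold changes of 4.09, 3.64 and 3.58, and all Malt1_WT libraries of the 4 genes lay above all Vector libraries. Il33, an alarmin released from nuclei, had 50.6, 57.2 and 47.9 CPM in Malt1_WT, against 5.81, 6.21 and 6.57 CPM in Vector (log2 fold change 3.07 ± 0.10 (SE), adjusted p = 1.57e-20). Csf2 (GM-CSF) and Csf1 (M-CSF), growth factors of myeloid cells, had 62.8 ± 6.2 and 614 ± 15.8 CPM in Malt1_WT, against 2.29 ± 0.37 and 156 ± 2.1 CPM in Vector. Kitl, the ligand of the stem cell factor receptor, was called lower (61.8 ± 4.2 CPM in Malt1_WT against 82.5 ± 14 CPM in Vector, adjusted p = 0.033), but without Vector replicate 2 the adjusted p was 0.118.

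The TNF superfamily gave 6 genes higher and none lower of 9 tested (median 0.99). Tnf had 57.5, 49.9 and 53 CPM in Malt1_WT libraries, against 1.35, 0.676 and 1.32 CPM in Vector libraries (log2 fold change 5.53 ± 0.13 (SE), adjusted p = 1.17e-23), and Lta, its neighbour on chromosome 17, had 2.38 ± 0.65 CPM in Malt1_WT against 0.141 ± 0.046 CPM in Vector. Tnfsf13b (BAFF), a survival factor of B cells, had 10.4, 10.2 and 11.8 CPM in Malt1_WT, against 6.23, 4.73 and 5.24 CPM in Vector, with a smaller log2 fold change of 0.99 ± 0.14.

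Growth factors were mixed. Of 8 tested EGF family ligands 4 rose and 1 fell (median 0.85). Ereg (epiregulin), a ligand of Egfr, had 888, 1002 and 991 CPM in Malt1_WT libraries, against 199, 236 and 233 CPM in Vector libraries (log2 fold change 2.11 ± 0.08 (SE), adjusted p = 1.45e-11). Hbegf and Areg, ligands of the same receptor, had 125 ± 1.8 and 173 ± 10.5 CPM in Malt1_WT, against 34.2 ± 2.1 and 66.8 ± 3.5 CPM in Vector. Nrg2, which binds other ErbB receptors, fell (2.68, 2.53 and 2.89 CPM in Malt1_WT, against 4.28, 4.61 and 5.05 CPM in Vector). Egf and Btc, also ligands of Egfr, were not called, with log2 fold changes of -0.73 and -0.09. Nrg1, which binds ErbB3, rose from a low level (1.03 ± 0.42 CPM in Malt1_WT against 0.259 ± 0.14 CPM in Vector). In CPM the largest gains of the family were in Ereg, Areg and Hbegf. Of 24 tested angiogenic, neurotrophic and other growth factors 12 rose and 7 fell (median 0.28). Pgf and Vegfa, ligands of Flt1, had 94.8 ± 7.7 and 628 ± 13.8 CPM in Malt1_WT, against 25.9 ± 3.5 and 238 ± 15.2 CPM in Vector. Vegfd, a lymphangiogenic relative, went down with 2.74, 3.28 and 3.08 CPM in Malt1_WT libraries, against 11.8, 12.6 and 11.7 CPM in Vector libraries (log2 fold change -1.98 ± 0.13 (SE), adjusted p = 2.71e-13). Angpt1, the ligand of Tek, had 6.79, 7.26 and 4.88 CPM in Malt1_WT, against 19.6, 23.1 and 20.3 CPM in Vector (log2 fold change -1.72 ± 0.11 (SE), adjusted p = 1.68e-13). Vegfc, which is lymphangiogenic like Vegfd, rose (5.53 ± 0.87 CPM in Malt1_WT against 1.89 ± 0.11 CPM in Vector). Members of the VEGF family therefore changed in opposite directions.

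In the TGF-beta superfamily 10 of 18 tested ligands and antagonists rose and 3 fell (median 0.47). Inhba, which encodes the subunit of activin A, had 273, 353 and 309 CPM in Malt1_WT libraries, against 30.6, 39.1 and 37.4 CPM in Vector libraries (log2 fold change 3.13 ± 0.12 (SE), adjusted p = 2.21e-10). Gdf15, a stress-induced hormone that acts on appetite, had 30.2, 28.6 and 29.2 CPM in Malt1_WT libraries, against 4.18, 3.5 and 4.36 CPM in Vector libraries (log2 fold change 2.85 ± 0.10 (SE), adjusted p = 7.49e-20). Every Malt1_WT library of both genes lay several-fold above the Vector libraries. Tgfb3 and Ltbp1, a ligand and a latency protein of the classical TGF-beta arm, fell, with 11.2 ± 0.86 and 72.1 ± 5.5 CPM in Malt1_WT, against 21.3 ± 0.34 and 162 ± 4.3 CPM in Vector. Wnt ligands and modulators changed little: 2 rose and 1 fell of 9 tested, none by 2-fold. Of 28 tested semaphorins, slits, netrins and ephrins 10 rose and 7 fell (median 0.01), with Sema4d (12.2 ± 0.77 CPM in Malt1_WT against 3.81 ± 0.57 CPM in Vector) and Sema7a (31.2 ± 2.1 CPM in Malt1_WT against 10.6 ± 1.1 CPM in Vector) among the rises and Ntn4 (3.14 ± 0.77 CPM in Malt1_WT against 8.62 ± 0.069 CPM in Vector) and Efnb1 (31.4 ± 2.6 CPM in Malt1_WT against 66.3 ± 3.5 CPM in Vector) among the falls.

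Hormones and vasoactive peptides were mostly higher, 8 of 15 tested against 2 lower (median 0.80). Nppb, the B-type natriuretic peptide known from heart muscle, had 163, 151 and 156 CPM in Malt1_WT libraries, against 18.4, 21.1 and 17.9 CPM in Vector libraries (log2 fold change 3.04 ± 0.06 (SE), adjusted p = 6.03e-25). Adm (adrenomedullin), a vasodilator, had 479.6, 434 and 458 CPM in Malt1_WT libraries, against 114, 115 and 117 CPM in Vector libraries (log2 fold change 1.99 ± 0.04 (SE), adjusted p = 1.96e-24). Neither gene had a Malt1_WT library within the range of Vector. Stc1 (stanniocalcin) had 88.7 ± 6.4 CPM in Malt1_WT against 22.6 ± 1.9 CPM in Vector. Fgf23, a hormone of phosphate balance known from bone, was not counted in this list but among the FGF ligands. Of 4 tested FGF ligands 1 rose and 1 fell. Fgf23 had 14.5, 13.2 and 14.7 CPM in Malt1_WT libraries, against 0.0929, 0.184 and 0.147 CPM in Vector libraries (log2 fold change 6.61 ± 0.23 (SE), adjusted p = 6.76e-20). Agt, the precursor of angiotensin, fell, with 0.914, 0.979 and 1.09 CPM in Malt1_WT, against 3.72, 2.89 and 3.77 CPM in Vector (log2 fold change -1.80 ± 0.22 (SE), adjusted p = 4.10e-08).

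Among acute-phase, complement and antimicrobial proteins 16 of 27 tested rose and 3 fell (median 0.94, the same with Serpina3f and Serpina3g at their lower bounds). Complement C3 had 1086 ± 31.7 CPM in Malt1_WT against 456 ± 11.6 CPM in Vector, and Hc, which encodes complement C5, had 7.7, 7.43 and 7.78 CPM in Malt1_WT libraries, against 0.372, 0.307 and 0.588 CPM in Vector libraries (log2 fold change 4.13 ± 0.22 (SE), adjusted p = 8.97e-16). Orm1 and Lbp, liver acute-phase proteins, fell instead, with 1.27 ± 0.36 and 7.31 ± 1.2 CPM in Malt1_WT, against 3.76 ± 0.65 and 13.8 ± 2.1 CPM in Vector.

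Extracellular proteases were more often higher, and collagens more often lower. Of 37 tested metalloproteases, plasminogen system genes and inhibitors 24 were higher and 4 lower (median 0.63). The collagenase Mmp13 had 18.4, 17.4 and 18.1 CPM in Malt1_WT libraries, against 0.604, 0.553 and 0.343 CPM in Vector libraries, and the stromelysin Mmp10 had 74, 78.7 and 80.2 CPM in Malt1_WT libraries, against 2.74, 2.27 and 2.06 CPM in Vector libraries. Their log2 fold changes were 5.15 ± 0.18 and 5.03 ± 0.11. In both genes the groups were far apart. Mmp19 and Timp2, an inhibitor of metalloproteases, fell, with 8.21 ± 0.47 and 298 ± 3.3 CPM in Malt1_WT, against 23.3 ± 1.0 and 465 ± 9.1 CPM in Vector. Of 25 tested collagens 13 fell and 5 rose (median -0.16), and 5 fell by at least 2-fold. Col8a1 had 6.27, 8.98 and 9.19 CPM in Malt1_WT libraries, against 43, 50.3 and 41.9 CPM in Vector libraries (log2 fold change -2.46 ± 0.12 (SE), adjusted p = 1.11e-13). Col6a3, a large microfibrillar collagen, had 212, 220.4 and 216 CPM in Malt1_WT, against 435, 448 and 447 CPM in Vector (log2 fold change -1.04 ± 0.04 (SE), adjusted p = 5.02e-19). The collagens that rose included Col18a1 (201 ± 6.1 CPM in Malt1_WT against 109 ± 1.8 CPM in Vector) and Col5a3 (519 ± 14.2 CPM in Malt1_WT against 303 ± 6.6 CPM in Vector). Among 43 other tested matrix and matricellular genes 19 fell and 15 rose (median -0.13). Tnc (tenascin C), a matrix protein of wounds and tumours, had 316, 322 and 329 CPM in Malt1_WT libraries, against 58.6, 66.1 and 63.7 CPM in Vector libraries (log2 fold change 2.36 ± 0.05 (SE), adjusted p = 7.50e-25). Ccn1, a matricellular gene, also rose (204 ± 8.7 CPM in Malt1_WT against 59.1 ± 3.9 CPM in Vector). Ccn5, of the same family, had 0.131, 0.115 and 0.0643 CPM in Malt1_WT libraries, against 12.7, 14.6 and 11.7 CPM in Vector libraries (log2 fold change -6.87 ± 0.28 (SE), adjusted p = 2.15e-18). Thbs2 and Tgfbi fell too, with 16 ± 0.50 and 55.5 ± 2.2 CPM in Malt1_WT, against 51.5 ± 2.7 and 174 ± 9.6 CPM in Vector. Members of the CCN family thus moved in opposite directions.

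**Figure D3:**
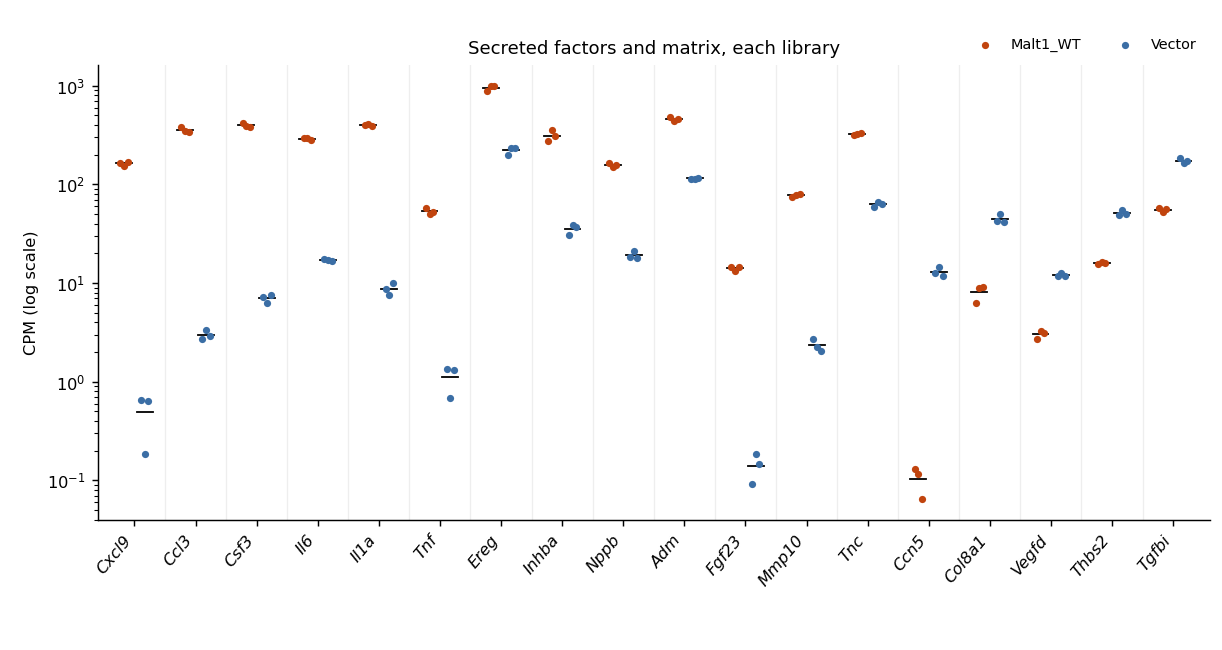
Each point is 1 library and each short line a group mean, in CPM on a log scale, with Malt1_WT (red) left of Vector (blue) for each gene. Cytokines, peptides, proteases and Tnc stand higher in all 3 Malt1_WT libraries, and Ccn5, Col8a1, Vegfd, Thbs2 and Tgfbi stand lower in all 3.

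Per kilobase of exon (RPKM), the order of the most abundant secreted transcripts changed. Spp1 (osteopontin) ranked 1 in Malt1_WT and in Vector, with 1977 RPKM in Malt1_WT and 2513 RPKM in Vector. Ccl2 ranked 2 in Malt1_WT and 3 in Vector. Cxcl1 ranked 3 in Malt1_WT and 10 in Vector, with 936 RPKM in Malt1_WT and 108 RPKM in Vector. Ccl3 ranked 5 in Malt1_WT and 124 in Vector, with 467 RPKM in Malt1_WT and 3.88 RPKM in Vector. Csf3, Il1a and Nppb ranked 8, 13 and 14 in Malt1_WT, against 114, 118 and 49 in Vector. Thus transcripts that were rare in Vector stood among the 20 most abundant secreted ones in Malt1_WT.

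Enzymes that make small mediators moved with the cytokines: 19 of 28 tested rose and 4 fell (median 0.92). Nos2 had 2422, 2269 and 2363 CPM in Malt1_WT libraries, against 304, 316 and 347 CPM in Vector libraries (log2 fold change 2.87 ± 0.04 (SE), adjusted p = 3.85e-28). Acod1, which makes itaconate from a cycle intermediate, had 98.3, 91.8 and 92 CPM in Malt1_WT libraries, against 4.74, 4.92 and 6.57 CPM in Vector libraries (log2 fold change 4.11 ± 0.09 (SE), adjusted p = 1.33e-24). Ch25h, which makes the oxysterol 25-hydroxycholesterol, had 11.6, 11.4 and 9.96 CPM in Malt1_WT libraries, against 0.511, 0.737 and 0.441 CPM in Vector libraries (log2 fold change 4.30 ± 0.20 (SE), adjusted p = 5.91e-17). Every Malt1_WT library of these 3 genes stood above every Vector library by several-fold. Ptges, which makes prostaglandin E2, had 1402 ± 26.3 CPM in Malt1_WT against 316 ± 9.1 CPM in Vector, and Ido2, of tryptophan breakdown, had 5.11 ± 1.2 CPM in Malt1_WT against 0.595 ± 0.29 CPM in Vector. Of the 4 falls, 2 were at least 2-fold, and the lowest log2 fold change in the list was -2.26. Lta4h, of leukotriene synthesis, fell by less (126 ± 4.8 CPM in Malt1_WT against 145 ± 7.0 CPM in Vector).

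Receptors rose more often than they fell. Of 559 receptor and adhesion genes listed, 299 were tested, 156 were higher (52.2%) and 50 lower (16.7%), and the median log2 fold change was 0.36. Changes of at least 2-fold numbered 84 higher and 7 lower. Over all tested genes 27.2% were higher and 27.7% lower, and 7.85% and 3.61% changed by at least 2-fold. Each list count below is to be read beside these shares.

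Of 35 tested cytokine and interferon receptors 14 rose and 5 fell (median 0.23). Il13ra2, a decoy receptor of interleukin 13, had 11.4, 13.8 and 12.2 CPM in Malt1_WT libraries, against 0.79, 0.553 and 1.27 CPM in Vector libraries (log2 fold change 3.79 ± 0.18 (SE), adjusted p = 9.23e-17). Il1rl1 (ST2), the receptor of Il33, had 6.53 ± 0.94 CPM in Malt1_WT against 1.71 ± 0.31 CPM in Vector, and Il15ra, which presents interleukin 15, had 81.3, 71.9 and 82.1 CPM in Malt1_WT, against 21.6, 22.1 and 19.5 CPM in Vector (log2 fold change 1.90 ± 0.06 (SE), adjusted p = 1.60e-20). Il6ra, the binding chain for Il6, fell, with 53.2, 57.5 and 56.4 CPM in Malt1_WT libraries, against 104, 109 and 99.4 CPM in Vector libraries (log2 fold change -0.90 ± 0.05 (SE), adjusted p = 3.90e-15). The ligand and its own receptor chain thus moved in opposite directions, as Il6 itself had 291 ± 7.2 CPM in Malt1_WT against 17.1 ± 0.55 CPM in Vector. The TNF receptor superfamily showed 11 genes higher and 1 lower of 18 tested (median 0.74). Tnfrsf1b, the second TNF receptor, had 621, 599.8 and 617 CPM in Malt1_WT libraries, against 175, 164 and 181 CPM in Vector libraries (log2 fold change 1.82 ± 0.04 (SE), adjusted p = 7.68e-25). Cd40, a co-stimulatory receptor of antigen-presenting cells, had 56.7, 47.9 and 56.1 CPM in Malt1_WT libraries, against 9.53, 9.46 and 8.48 CPM in Vector libraries (log2 fold change 2.55 ± 0.08 (SE), adjusted p = 1.03e-20). Tnfrsf1a, the death domain receptor of TNF, fell, with 129.8 ± 1.8 CPM in Malt1_WT against 157 ± 4.0 CPM in Vector. The 2 receptors of Tnf therefore differed in direction.

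Pattern-recognition receptors and their adaptors were higher in 28 and lower in 4 of 36 tested (median 0.70). Clec4e (Mincle), a lectin that senses mycobacterial and damaged-cell lipids, had 57, 72.6 and 62 CPM in Malt1_WT libraries, against 3.86, 3.26 and 4.46 CPM in Vector libraries (log2 fold change 4.04 ± 0.11 (SE), adjusted p = 1.99e-22). Nlrp3, the inflammasome sensor, had 67.7, 64.4 and 71.9 CPM in Malt1_WT libraries, against 7.25, 7.74 and 7.74 CPM in Vector libraries (log2 fold change 3.17 ± 0.08 (SE), adjusted p = 2.13e-23). Zbp1, which senses Z-form nucleic acids, had 82.1 ± 4.7 CPM in Malt1_WT against 18.3 ± 1.8 CPM in Vector. The falls were smaller, as in Mavs (46.2 ± 0.82 CPM in Malt1_WT against 61.3 ± 0.47 CPM in Vector) and Cgas (10.3 ± 0.97 CPM in Malt1_WT against 14 ± 0.95 CPM in Vector), which serve the sensing of cytosolic RNA and DNA. Several of these genes are also used by macrophages, whose markers summed higher in Malt1_WT as given above. Their part in these rises was not tested.

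Receptor tyrosine kinases were split, with 14 higher and 10 lower of 31 tested (median 0.26). Egfr had 15.9, 18.4 and 14.6 CPM in Malt1_WT libraries, against 5.95, 5.84 and 6.03 CPM in Vector libraries (log2 fold change 1.46 ± 0.12 (SE), adjusted p = 1.98e-11). Fgfr3 had 28.7, 28.3 and 28.7 CPM in Malt1_WT libraries, against 5.99, 5.35 and 5.0 CPM in Vector libraries (log2 fold change 2.39 ± 0.10 (SE), adjusted p = 2.90e-18). Flt1 had 3.26 ± 0.34 CPM in Malt1_WT against 0.655 ± 0.37 CPM in Vector. Axl, a receptor of Gas6, fell, with 319.7, 315 and 322 CPM in Malt1_WT, against 498, 507 and 499 CPM in Vector. Igf1r fell too, with 111 ± 6.1 CPM in Malt1_WT against 149 ± 8.9 CPM in Vector. TGF-beta and BMP receptors gave 5 higher and 2 lower of 12, led by Acvrl1 (13.3 ± 0.79 CPM in Malt1_WT against 4.1 ± 0.82 CPM in Vector). Of 22 tested Wnt, Notch and Hedgehog surface genes 10 rose and 6 fell (median 0.11). The Notch ligands Dll4 (4.67 ± 0.72 CPM in Malt1_WT against 0.551 ± 0.31 CPM in Vector) and Dll1 (14.4 ± 1.5 CPM in Malt1_WT against 4.21 ± 0.11 CPM in Vector) and the receptor Notch3 (3.8 ± 0.99 CPM in Malt1_WT against 0.882 ± 0.38 CPM in Vector) rose. The Hedgehog transducer Smo fell, with 108 ± 2.9 CPM in Malt1_WT against 159 ± 3.1 CPM in Vector. Plexins, neuropilins and related guidance receptors were higher in 7 and lower in 2 of 13 tested (median 0.47), with Plxnd1 at 358 ± 9.4 CPM in Malt1_WT against 211 ± 6.8 CPM in Vector.

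Of 217 listed G protein-coupled receptors 78 were tested, and 38 of these rose and 9 fell (median 0.49). By at least 2-fold, 29 rose and 1 fell. Most listed receptors were below the filter, and a receptor near 0 in Vector could pass it only through a group where it was high. Ccrl2, which binds chemerin without signalling, had 43.1, 38.5 and 42.9 CPM in Malt1_WT libraries, against 1.72, 1.54 and 1.86 CPM in Vector libraries (log2 fold change 4.59 ± 0.13 (SE), adjusted p = 7.88e-22). Ptgir, the prostacyclin receptor, had 6.59, 5.59 and 7.01 CPM in Malt1_WT libraries, against 0.744, 0.43 and 0.196 CPM in Vector libraries (log2 fold change 3.76 ± 0.27 (SE), adjusted p = 1.04e-12). Calcrl, which forms the adrenomedullin receptor with a RAMP protein, had 21.1, 26.1 and 22.4 CPM in Malt1_WT, against 4.83, 6.27 and 4.31 CPM in Vector (log2 fold change 2.20 ± 0.13 (SE), adjusted p = 8.45e-14). All 3 were low in every Vector library. Gpr84, a receptor of medium-chain fatty acids, had 8.07 ± 0.75 CPM in Malt1_WT against 0.409 ± 0.050 CPM in Vector. Gprc5b, the receptor that fell by at least 2-fold, had 0.522, 0.864 and 0.964 CPM in Malt1_WT libraries, against 10.4, 9.53 and 9.75 CPM in Vector libraries (log2 fold change -3.64 ± 0.18 (SE), adjusted p = 3.37e-16).

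Adhesion molecules of the immunoglobulin and selectin families gave 15 higher and 2 lower of 21 tested (median 0.69). Icam1 and Vcam1, which bind leukocyte integrins, had 81.4 ± 4.8 and 12 ± 1.9 CPM in Malt1_WT, against 15.1 ± 0.40 and 3.54 ± 0.52 CPM in Vector. Among 19 tested integrins 8 rose and 3 fell (median 0.08). Itgb3, a partner of the alpha v subunit, had 196, 196 and 202 CPM in Malt1_WT libraries, against 27.3, 30.6 and 32.7 CPM in Vector libraries (log2 fold change 2.71 ± 0.06 (SE), adjusted p = 2.68e-24). Itga2, of the collagen receptor, had 8.22, 9.96 and 7.84 CPM in Malt1_WT libraries, against 0.604, 1.17 and 1.18 CPM in Vector libraries (log2 fold change 3.16 ± 0.23 (SE), adjusted p = 1.19e-12). Scavenger and lipoprotein receptors were even, with 6 higher and 6 lower of 15 tested (median 0.04). Olr1 (4.38 ± 0.37 CPM in Malt1_WT against 0.595 ± 0.13 CPM in Vector) and Stab1 (27.6 ± 0.63 CPM in Malt1_WT against 6.47 ± 1.0 CPM in Vector) rose. Lrp1, a large endocytic receptor, fell (457 ± 7.3 CPM in Malt1_WT against 629.9 ± 35.5 CPM in Vector).

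Ligands were set beside their receptors in the same libraries. Of 83 listed pairs the ligand was higher in 51, and in 28 of these every receptor subunit reached 1 CPM in Malt1_WT. The ligand was at least 2-fold higher in 39 pairs, 19 of them with such a receptor. Tnf and Tnfrsf1b, Il33 and Il1rl1, Ereg, Areg, Hbegf and Egfr, Osm and Osmr, and Ccl3 and Ccr1 rose together, counting the binding chain of each receptor. Ccr1 had 2.51 ± 0.20 CPM in Malt1_WT against 0.581 ± 0.25 CPM in Vector and Osmr had 127 ± 5.6 CPM in Malt1_WT against 86.3 ± 5.1 CPM in Vector. Lifr, the receptor of Lif, rose from a low level, with 1.44, 1.27 and 1.16 CPM in Malt1_WT, against 0.0465, 0.43 and 0.294 CPM in Vector (log2 fold change 2.37 ± 0.53 (SE), adjusted p = 3.70e-04). In other pairs a receptor subunit was not called beside a ligand that rose. Acvr2a, a receptor subunit of activin A, had 35.4 ± 2.8 CPM in Malt1_WT against 31.8 ± 5.7 CPM in Vector (adjusted p = 0.263), and Ramp2, a subunit of the Adm receptor, had 4.44 ± 0.61 CPM in Malt1_WT against 4.77 ± 1.4 CPM in Vector (adjusted p = 0.533). For many inflammatory ligands the receptor was near 0 in both groups. Cxcr2, the receptor of Cxcl1 and Cxcl2, had 0.041 CPM in Malt1_WT against 0.0368 CPM in Vector, Csf3r had 0 CPM in Malt1_WT against 0.0368 CPM in Vector, and Ccr2 had 0.0218 CPM in Malt1_WT against 0.036 CPM in Vector. Kl, the co-receptor of Fgf23, had 0.587, 0.288 and 0.578 CPM in Malt1_WT libraries, against 0.418, 0.676 and 0.588 CPM in Vector libraries, and was not called (adjusted p = 0.739). Its libraries overlapped.

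**Figure D4:**
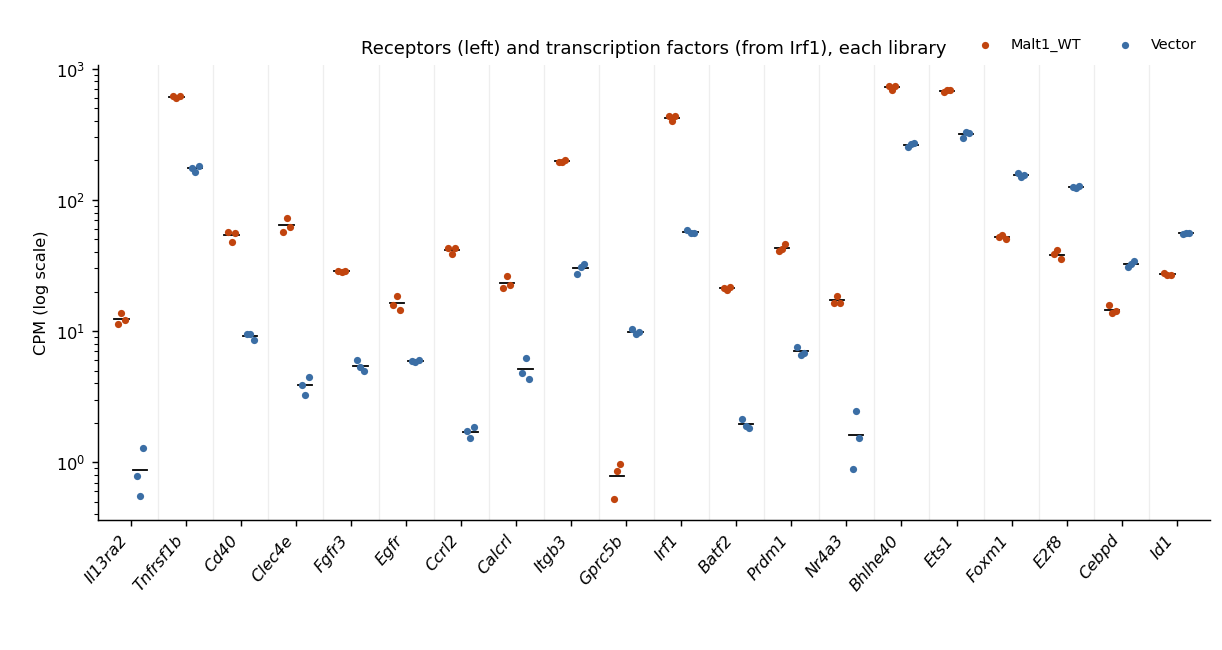
Each point is 1 library and each short line a group mean, in CPM on a log scale, with Malt1_WT (red) left of Vector (blue). Receptors run from Il13ra2 to Gprc5b and transcription factors from Irf1 to Id1, and no gene shown has overlapping groups.

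Transcription factors had a median change closer to that of all genes. Of 510 listed, 313 were tested, 128 were higher (40.9%) and 83 lower (26.5%), and the median log2 fold change was 0.09. At least 2-fold changes numbered 45 higher and 14 lower. All tested genes gave 27.2% higher and 27.7% lower, so the share of lower transcription factors was near that of all genes.

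The NF-kB and IkB family was higher in 9 and lower in 1 of 11 tested (median 1.00). Nfkb2, the precursor of the noncanonical subunit, had 227, 215 and 225 CPM in Malt1_WT libraries, against 94.2, 85.2 and 90.1 CPM in Vector libraries (log2 fold change 1.30 ± 0.04 (SE), adjusted p = 4.41e-20). Nfkbia, the inhibitor that NF-kB induces against itself, had 599.6, 563 and 605 CPM in Malt1_WT libraries, against 235, 234 and 242 CPM in Vector libraries (log2 fold change 1.31 ± 0.04 (SE), adjusted p = 2.47e-21). Nfkb2 and Nfkbia thus rose by similar folds, and the inhibitors Nfkbie and Nfkbib rose by more. Bcl3, an atypical member, was called lower (48 ± 1.5 CPM in Malt1_WT against 54.8 ± 3.2 CPM in Vector, adjusted p = 0.0101), but without Vector replicate 1 the adjusted p was 0.105.

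Of 32 tested AP-1, ATF, CREB and MAF genes 23 rose and none fell (median 0.54). Batf2, an interferon-responsive factor, had 21.4, 20.4 and 21.5 CPM in Malt1_WT libraries, against 2.14, 1.91 and 1.81 CPM in Vector libraries (log2 fold change 3.43 ± 0.14 (SE), adjusted p = 6.29e-18). Fos had 15.1, 13.1 and 15.3 CPM in Malt1_WT libraries, against 4.18, 3.44 and 4.02 CPM in Vector libraries (log2 fold change 1.89 ± 0.13 (SE), adjusted p = 5.18e-13). Crem and Jdp2, repressors of cAMP and AP-1 responses, had 29.4 ± 0.95 and 65.5 ± 1.9 CPM in Malt1_WT, against 8.38 ± 0.51 and 23.5 ± 1.4 CPM in Vector. Activators and repressors of the family were both among the rises. IRF and STAT factors gave 9 higher and 1 lower of 13 tested (median 0.27). Irf1 had 434, 398 and 436 CPM in Malt1_WT libraries, against 58.7, 56.1 and 55.6 CPM in Vector libraries (log2 fold change 2.89 ± 0.05 (SE), adjusted p = 6.00e-28). Irf1 stood alone in this list with a change of at least 2-fold, while Stat2 had 179.9 ± 10.7 CPM in Malt1_WT against 93 ± 3.4 CPM in Vector.

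Other families held large movers in both directions. Nr4a3, an orphan nuclear receptor of the immediate-early class, had 16.4, 18.6 and 16.3 CPM in Malt1_WT libraries, against 0.883, 2.46 and 1.52 CPM in Vector libraries (log2 fold change 3.46 ± 0.18 (SE), adjusted p = 5.19e-16), within a family of 26 tested genes that was even (9 higher, 9 lower, median 0.02). Its relatives Nr4a1 and Nr4a2 rose as well, with 19 ± 1.6 and 13.1 ± 1.1 CPM in Malt1_WT, against 8.52 ± 0.48 and 6.28 ± 0.30 CPM in Vector, and 2 nuclear receptors fell by at least 2-fold. Prdm1 (Blimp-1), a repressor known from plasma cells, had 40.9, 42.3 and 46.5 CPM in Malt1_WT libraries, against 7.62, 6.58 and 6.86 CPM in Vector libraries (log2 fold change 2.61 ± 0.11 (SE), adjusted p = 6.29e-17). Bhlhe40, a repressor of the bHLH family, had 739, 683 and 742 CPM in Malt1_WT, against 255, 265 and 269.8 CPM in Vector (log2 fold change 1.45 ± 0.04 (SE), adjusted p = 1.36e-22). Ets1 had 659, 682 and 687 CPM in Malt1_WT libraries, against 295, 329 and 324 CPM in Vector libraries (log2 fold change 1.10 ± 0.04 (SE), adjusted p = 5.35e-19), one of 8 ETS genes higher and 6 lower of 17 tested. Runx3 and Gata2 rose from low levels (2.64 ± 0.21 and 8.69 ± 0.44 CPM in Malt1_WT, against 0.493 ± 0.15 and 3.28 ± 0.27 CPM in Vector), while Nfatc2, activated by calcium signals, fell (0.984 ± 0.38 CPM in Malt1_WT against 3.51 ± 0.63 CPM in Vector). Foxa1, a pioneer factor of luminal mammary cells, had 16.7, 15.7 and 13.3 CPM in Malt1_WT, against 6.41, 6.64 and 6.57 CPM in Vector (log2 fold change 1.22 ± 0.11 (SE), adjusted p = 1.03e-10). Among the C/EBP genes Cebpb rose (354 ± 28.2 CPM in Malt1_WT against 173 ± 13.4 CPM in Vector) and Cebpd fell (15.7, 13.7 and 14.2 CPM in Malt1_WT libraries, against 31, 32.5 and 34.2 CPM in Vector libraries). The inhibitors of differentiation also split, as Id2 (63.5 ± 2.7 CPM in Malt1_WT against 24.6 ± 1.4 CPM in Vector) and Id3 (59.1 ± 2.9 CPM in Malt1_WT against 22.2 ± 0.78 CPM in Vector) rose and Id1 (27.5, 26.7 and 26.9 CPM in Malt1_WT libraries, against 54.9, 55.6 and 56.4 CPM in Vector libraries) fell. Mxd1 and Mxd3, both antagonists of Myc, moved apart as well, with 44.2 ± 2.3 and 4.5 ± 0.47 CPM in Malt1_WT, against 11.9 ± 2.1 and 12.9 ± 2.1 CPM in Vector.

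The remaining families were close to even. EGR, KLF and SP genes gave 7 higher and 4 lower of 20 tested (median 0.11), homeobox genes outside the HOX clusters 10 and 8 of 27 (0.04), and bHLH and ID genes 13 and 11 of 34 (0.05). GATA, RUNX, TEAD, SMAD and NFAT genes gave 7 higher and 10 lower of 29 tested (median -0.04), forkhead genes 6 and 4 of 18 (0.09), and SOX, TCF/LEF and HMGA genes 3 and 2 of 9 (-0.05). Sox9, a factor of epithelial progenitors, had 227 ± 4.3 CPM in Malt1_WT against 145 ± 5.5 CPM in Vector. Tgif1, a repressor of SMAD responses, had 252 ± 3.5 CPM in Malt1_WT against 135 ± 5.9 CPM in Vector, and Gli1, the transcription factor and target of Hedgehog signalling, fell, with 9.59, 6.62 and 8.48 CPM in Malt1_WT, against 20.7, 19 and 19.2 CPM in Vector (log2 fold change -1.26 ± 0.13 (SE), adjusted p = 5.58e-09). The fall of Gli1 lay beside that of Smo, its upstream transducer, given above.

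Factors of proliferation were more often lower than higher, and HOX genes held falls but no rises. In the E2F, RB and MYB family 13 of 19 tested were lower and 2 higher (median -0.31). E2f8, an atypical E2F, had 38.4, 41.2 and 35.3 CPM in Malt1_WT libraries, against 126, 124 and 127 CPM in Vector libraries (log2 fold change -1.71 ± 0.05 (SE), adjusted p = 1.98e-21), and Foxm1, which drives genes of mitosis, had 51.8, 53.9 and 50.3 CPM in Malt1_WT libraries, against 161, 149 and 154 CPM in Vector libraries (log2 fold change -1.57 ± 0.05 (SE), adjusted p = 1.29e-20). Of 16 tested HOX genes 6 were lower (37.5%, beside 27.7% of all tested genes), none was higher and 10 were not called (median -0.25). Among the falls were Hoxd9 (19.5 ± 0.99 CPM in Malt1_WT against 28.5 ± 0.99 CPM in Vector) and Hoxc10 (5.72 ± 0.51 CPM in Malt1_WT against 8.7 ± 0.56 CPM in Vector). Hoxc4 was also called lower, but without Malt1_WT replicate 3 its adjusted p was 0.120 by edgeR. Clock genes leaned upward, 10 higher and 2 lower of 17 tested (median 0.49). Ciart, Cry1 and Per1, repressors of the clock, had 24.8 ± 1.3, 30.8 ± 1.5 and 72.3 ± 5.1 CPM in Malt1_WT, against 8.35 ± 0.40, 13 ± 1.1 and 35.4 ± 1.1 CPM in Vector, and Nr1d2 (Rev-erb beta) fell (38 ± 0.74 CPM in Malt1_WT against 48.3 ± 4.0 CPM in Vector).

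Signalling genes next to MALT1 were more often higher than lower. Of 43 tested members of the CARD-BCL10-MALT1, TRAF and IKK list 24 rose and 5 fell (median 0.18). The largest rises after Malt1 were in Tnfaip3, Birc3 and Traf1. Tnfaip3 (A20), a deubiquitinase that limits NF-kB and is cut by MALT1 in other systems, had 148, 150.4 and 154 CPM in Malt1_WT libraries, against 29, 28.8 and 28.7 CPM in Vector libraries (log2 fold change 2.39 ± 0.06 (SE), adjusted p = 1.52e-23). Birc3 and Traf1 had 31.4 ± 1.9 and 116 ± 1.8 CPM in Malt1_WT, against 6.83 ± 0.49 and 26 ± 3.5 CPM in Vector. Among 22 tested regulators of cytokine mRNA decay 13 rose and 5 fell (median 0.34). Zfp36 (tristetraprolin), which destroys mRNAs with AU-rich ends, had 114, 79.9 and 118 CPM in Malt1_WT libraries, against 13, 11.9 and 13.7 CPM in Vector libraries (log2 fold change 3.0 ± 0.13 (SE), adjusted p = 1.01e-11). Its relative Zfp36l2 fell, with 218, 231 and 215 CPM in Malt1_WT, against 325, 353 and 337 CPM in Vector (log2 fold change -0.61 ± 0.04 (SE), adjusted p = 4.08e-13). Zc3h12a (Regnase-1) had 171 ± 0.29 CPM in Malt1_WT against 90.6 ± 0.70 CPM in Vector. Feedback genes of the SOCS, DUSP, SPRY and RGS families were higher in 27 and lower in 5 of 41 tested (median 0.42). Socs1, an inhibitor of JAK kinases, had 59.4, 49.3 and 57 CPM in Malt1_WT libraries, against 8.78, 10.1 and 12.4 CPM in Vector libraries (log2 fold change 2.41 ± 0.11 (SE), adjusted p = 1.04e-13), and Dusp5, a phosphatase of ERK, had 116 ± 5.6 CPM in Malt1_WT against 40.5 ± 2.2 CPM in Vector.

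Genes of amino acid supply were more often higher in 3 lists. Of 27 tested amino acid transporters 20 rose and 2 fell (median 0.53). Slc7a11, the cystine importer, had 159, 178 and 165 CPM in Malt1_WT libraries, against 22, 30.9 and 27.5 CPM in Vector libraries (log2 fold change 2.66 ± 0.12 (SE), adjusted p = 2.55e-10). Slc7a2, an arginine importer, had 2.49 ± 0.22 CPM in Malt1_WT against 0.332 ± 0.16 CPM in Vector. Cytosolic aminoacyl-tRNA synthetases, which charge tRNAs, were higher in 13 and lower in 3 of 20 (median 0.46), none by 2-fold. Tars had 449, 449 and 441 CPM in Malt1_WT libraries, against 252, 254 and 231 CPM in Vector libraries (log2 fold change 0.86 ± 0.04 (SE), adjusted p = 2.39e-17), and Vars fell (325 ± 10.7 CPM in Malt1_WT against 409.7 ± 14.3 CPM in Vector). Serine and one-carbon genes gave 14 higher and 9 lower of 28 tested (median 0.16). Mthfd2, the mitochondrial folate enzyme, had 232, 221 and 229 CPM in Malt1_WT libraries, against 93.7, 91.8 and 92.3 CPM in Vector libraries (log2 fold change 1.29 ± 0.04 (SE), adjusted p = 2.24e-21). Mthfd1, of the cytosolic folate cycle, fell, with 178 ± 3.5 CPM in Malt1_WT against 227 ± 8.5 CPM in Vector. The mitochondrial and the cytosolic enzyme thus moved apart.

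Iron and redox genes held both rises and falls. Of 24 tested iron genes 11 rose and 3 fell (median 0.18). Hmox1, which releases iron from haem, had 1094, 952 and 1067 CPM in Malt1_WT libraries, against 189.7, 194 and 198 CPM in Vector libraries (log2 fold change 2.42 ± 0.04 (SE), adjusted p = 2.91e-26), and Lcn2, which binds iron carriers of bacteria, had 670.4 ± 35 CPM in Malt1_WT against 274 ± 17.1 CPM in Vector. Steap3, an iron reductase, fell (4.65 ± 0.45 CPM in Malt1_WT against 12.6 ± 0.90 CPM in Vector). In the glutathione and antioxidant list 23 of 45 tested rose and 13 fell (median 0.20). Chac1, which degrades glutathione, had 21.1 ± 1.4 CPM in Malt1_WT against 7.22 ± 0.84 CPM in Vector, whereas Gpx1 (69.9, 63.3 and 61.2 CPM in Malt1_WT, against 129.9, 116 and 124 CPM in Vector) and Mgst1 (27.5 ± 1.6 CPM in Malt1_WT against 53.8 ± 3.2 CPM in Vector) fell.

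Lipid and central carbon genes moved in both directions. Fatty acid genes gave 17 higher and 18 lower of 47 tested (median -0.05). Among the rises were the storage genes Hilpda (167 ± 7.3 CPM in Malt1_WT against 53.3 ± 4.3 CPM in Vector), Gpat3 (38 ± 3.0 CPM in Malt1_WT against 14.1 ± 1.4 CPM in Vector) and Dgat2 (2.13 ± 0.18 CPM in Malt1_WT against 0.276 ± 0.070 CPM in Vector). Acacb, an acetyl-CoA carboxylase, rose as well (10.2 ± 0.58 CPM in Malt1_WT against 1.89 ± 0.37 CPM in Vector). Among the falls, the elongase Elovl6 had 38.7, 40.9 and 38 CPM in Malt1_WT libraries, against 132, 134 and 127 CPM in Vector libraries (log2 fold change -1.74 ± 0.05 (SE), adjusted p = 4.99e-21) and the desaturase Fads2 had 28.1 ± 1.3 CPM in Malt1_WT against 75.2 ± 1.6 CPM in Vector. Of 25 tricarboxylic acid cycle genes, all tested, 15 were lower and 2 higher (median -0.32), with Idh1 far below the rest of the falls and Idh2 at 48 ± 1.9 CPM in Malt1_WT against 70.2 ± 1.7 CPM in Vector. Glycolysis and hypoxia genes were even, 15 higher and 14 lower of 35 tested. Within that list Slc2a6, a hexose transporter, had 29.7, 25.2 and 27.1 CPM in Malt1_WT libraries, against 3.81, 4.24 and 5.15 CPM in Vector libraries (log2 fold change 2.63 ± 0.12 (SE), adjusted p = 4.63e-17), and Ndrg1 had 1049 ± 11.3 CPM in Malt1_WT against 417 ± 10.3 CPM in Vector, while the glycolytic enzymes Pkm (2700.5 ± 33.2 CPM in Malt1_WT against 3577 ± 116 CPM in Vector) and Tpi1 (1773 ± 36.1 CPM in Malt1_WT against 2214 ± 87.7 CPM in Vector) fell.

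The secretory pathway was higher in 29 and lower in 8 of 66 tested genes (median 0.09), mostly by little. Ero1l, which forms disulfide bonds, was the member with an at least 2-fold change, with 1151, 1208 and 1259.8 CPM in Malt1_WT libraries, against 372, 451 and 450.1 CPM in Vector libraries (log2 fold change 1.51 ± 0.10 (SE), adjusted p = 6.97e-08). Cytosolic heat-shock chaperones leaned the other way, 5 higher and 13 lower of 22 tested (median -0.13), with Hspa8 at 2826, 2953 and 2705 CPM in Malt1_WT, against 4015, 3749.8 and 4050.4 CPM in Vector. Lysosomal genes gave 27 higher and 4 lower of 49 (median 0.13), led by Npc1 (115 ± 5.3 CPM in Malt1_WT against 55.5 ± 2.6 CPM in Vector), and autophagy genes 15 higher and 8 lower of 37 (median 0.11), led by the receptor Sqstm1 (1559 ± 92.2 CPM in Malt1_WT against 694 ± 30.1 CPM in Vector).

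Genes of cell division were more often lower than higher. Of 48 kinetochore and spindle checkpoint genes, all tested, 47 were lower and 1 higher (median -1.10), and 26 fell by at least 2-fold. Cenpf, of the outer kinetochore, had 15.3, 16.3 and 18.1 CPM in Malt1_WT libraries, against 77.6, 94.5 and 81.8 CPM in Vector libraries (log2 fold change -2.35 ± 0.09 (SE), adjusted p = 7.38e-17). Cenpa, the centromeric histone variant, had 48.8, 45.4 and 46.7 CPM in Malt1_WT, against 174, 176 and 166 CPM in Vector (log2 fold change -1.87 ± 0.05 (SE), adjusted p = 3.67e-22). The Malt1_WT libraries of both lay far under every Vector library. Of 51 replication genes, all tested, 44 were lower and 1 higher (median -0.64), but 3 by at least 2-fold, with Rrm2 at 193 ± 2.9 CPM in Malt1_WT against 395 ± 9.0 CPM in Vector and Clspn at 43.9 ± 1.3 CPM in Malt1_WT against 97.7 ± 5.2 CPM in Vector. Condensin, cohesin and centrosome genes gave 32 lower and 1 higher of 39 tested (median -0.64). Plk1, the mitotic kinase whose promoter is printed above, had 29.7, 26.8 and 28.7 CPM in Malt1_WT libraries, against 140.2, 119 and 140.2 CPM in Vector libraries (log2 fold change -2.23 ± 0.06 (SE), adjusted p = 6.85e-22). Homologous recombination and Fanconi genes gave 25 lower and 4 higher of 46 (median -0.28), as in Fanci (9.23 ± 1.3 CPM in Malt1_WT against 22.6 ± 1.7 CPM in Vector) and Rad51ap1 (24.5 ± 0.60 CPM in Malt1_WT against 59.4 ± 3.0 CPM in Vector). Among the 30 tested kinesins 15 fell and 7 rose (median -0.18). The mitotic Kif20a had 21.9, 21 and 20.9 CPM in Malt1_WT libraries, against 98.7, 98.6 and 96.2 CPM in Vector libraries, whereas the transport motors Kif5b (329 ± 24.1 CPM in Malt1_WT against 225 ± 35.2 CPM in Vector) and Kif3c (61.8 ± 4.1 CPM in Malt1_WT against 43.6 ± 2.0 CPM in Vector) rose. The kinesins split by their known role in these examples. Of 26 tested cyclins, CDKs and inhibitors 19 fell and 2 rose (median -0.60), with Ccnb1 at 53.9 ± 3.5 CPM in Malt1_WT against 210.3 ± 6.8 CPM in Vector and the rises in Cdkn1a and Ccnd2 (1043 ± 41.4 and 669 ± 24.7 CPM in Malt1_WT, against 283 ± 5.7 and 427 ± 27.4 CPM in Vector).

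Cell shape and death genes moved less uniformly. In the actin and SRF list 15 rose and 13 fell of 41 tested (median 0.01), yet Rnd1, a small GTPase-like protein that loosens the cytoskeleton, had 85, 73.5 and 89.1 CPM in Malt1_WT libraries, against 9.29, 8.3 and 8.28 CPM in Vector libraries (log2 fold change 3.25 ± 0.09 (SE), adjusted p = 1.58e-22). Of 106 listed keratins and epithelial junction genes 27 were tested, and 13 of these were higher and 7 lower (median 0.74). Among the rises were Cldn23 (8.19 ± 0.57 CPM in Malt1_WT against 1.3 ± 0.51 CPM in Vector) and desmoplakin (Dsp, 13.9 ± 0.53 CPM in Malt1_WT against 2.83 ± 0.54 CPM in Vector). Krt16 and Krt17 were also higher, and Epcam was lower. Of 31 tested BCL2 family, IAP and caspase genes 15 rose and 6 fell (median 0.26), including Mlkl, the executor of necroptosis (268 ± 3.5 CPM in Malt1_WT against 137 ± 1.3 CPM in Vector), which rose. Targets of Wnt, Notch, TGF-beta, Hedgehog and glucocorticoid signalling gave 7 higher and 5 lower of 14 tested. The TGF-beta target Skil rose (195 ± 10.7 CPM in Malt1_WT against 92.9 ± 12.9 CPM in Vector), whereas Tgfbi, also a TGF-beta target, fell as given above. The glucocorticoid target Fkbp5 fell (152 ± 5.1 CPM in Malt1_WT against 242 ± 8.0 CPM in Vector), whereas Tsc22d3, also a glucocorticoid target, rose (74.4 ± 2.6 CPM in Malt1_WT against 47.3 ± 0.73 CPM in Vector).

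**Figure D5:**
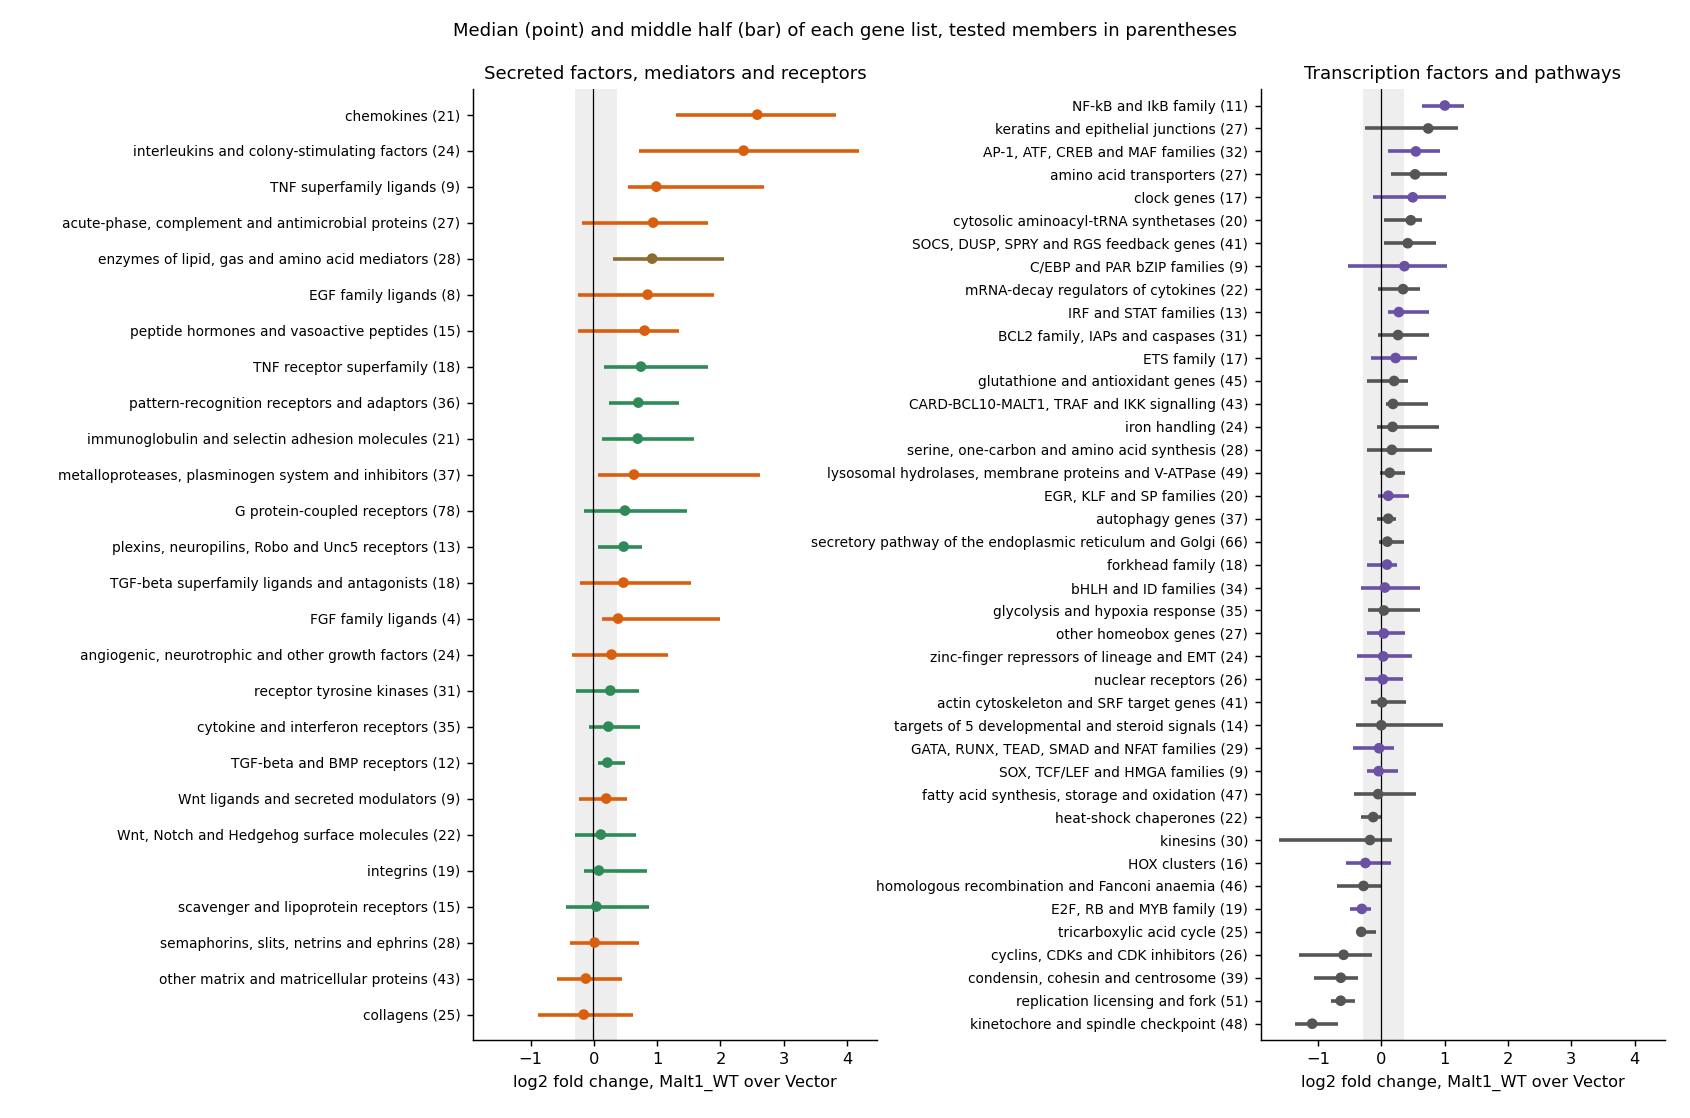
Points give the median and bars the middle 50% of log2 fold changes, Malt1_WT over Vector, for the tested members of each gene list, with their number in parentheses; the grey band is the middle 50% of all tested genes. Colours mark secreted factors (orange), mediator enzymes (brown), receptors (green), transcription factors (purple) and other pathways (grey), and medians run from 2.58 for chemokines to -1.10 for kinetochore genes.

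Genes were also grouped by a shared symbol. Among families of at least 8 tested genes, the highest medians were those of Cxcl (8 of 8 higher, 4.27), Gbp (9 of 9, 3.25), Sprr (9 of 9, 2.98), Mmp (12 of 15, 2.62), Ccl (7 of 11, 1.34) and Ifi (12 of 16, 0.97). Gbp genes encode interferon-inducible GTPases, and Sprr genes encode small proline-rich proteins of the cornified envelope. Gbp4 had 43.7, 39.8 and 42.4 CPM in Malt1_WT libraries, against 1.77, 1.84 and 1.57 CPM in Vector libraries (log2 fold change 4.60 ± 0.11 (SE), adjusted p = 1.21e-23). Sprr2d had 16.9, 16.4 and 16.4 CPM in Malt1_WT libraries, against 1.39, 1.29 and 1.23 CPM in Vector libraries (log2 fold change 3.66 ± 0.18 (SE), adjusted p = 2.18e-16). Both families are made of near-identical genes whose reads may be split between copies, so the value of a single member is uncertain. The lowest medians were those of Hist (13 of 18 lower, -1.15), Pcdhb (5 of 9, -0.82), Mcm (9 of 10, -0.70), Cdkn (5 of 8, -0.69), Ndufb (8 of 10, -0.42) and Lsm (10 of 13, -0.36). Mcm7, of the replicative helicase, had 145, 138 and 139.9 CPM in Malt1_WT, against 288, 276 and 272 CPM in Vector (log2 fold change -0.98 ± 0.04 (SE), adjusted p = 4.32e-18), and Lsm6, of an RNA-binding ring, had 40.7, 38.8 and 36.2 CPM in Malt1_WT, against 78, 70.0 and 75.4 CPM in Vector (log2 fold change -0.95 ± 0.06 (SE), adjusted p = 1.36e-14). None of the tested Mcm, Ndufb or Lsm genes reached a 2-fold change.

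Some large rises sat next to each other in the chromosomal order of tested genes. Taking protein-coding tested genes in order (GRCm38), 37 runs of at least 3 neighbours, 142 genes in all, were each called and at least 2-fold higher, against 6 runs with 23 genes lower. Among all tested protein-coding genes, 953 were called and at least 2-fold higher and 436 at least 2-fold lower. Genes below the filter were skipped, so members of a run need not be adjacent on the chromosome. A run of 8 on chromosome 11, between positions 48826140 and 49096974, held Irgm1, Tgtp1, Tgtp2 and Ifi47, interferon-inducible GTPases, and ran from Trim7 (1.28 ± 0.042 CPM in Malt1_WT against 0.463 ± 0.067 CPM in Vector) to Ifi47 (71, 61.3 and 71.7 CPM in Malt1_WT libraries, against 9.81, 9.03 and 9.21 CPM in Vector libraries). Another run of 8 on chromosome 3 (90668978 to 92419396) joined S100a8 and S100a9 to 6 Sprr2 genes. Runs of 6 held Ccl5, Ccl9, Ccl3 and Ccl4 with Heatr9 and Wfdc18 on chromosome 11 (83511736 to 83711348), 5 Gbp genes with Lrrc8b on chromosome 5 (105014150 to 105490074), and the metalloproteases Mmp13, Mmp12, Mmp1b, Mmp3, Mmp10 and Mmp8 on chromosome 9 (7272514 to 7568485). Ccl4 had 10.6, 13.7 and 10.1 CPM in Malt1_WT, against 0.744, 1.04 and 0.686 CPM in Vector. Mmp3 had 119, 129 and 129 CPM in Malt1_WT, against 11, 10.1 and 10.1 CPM in Vector. Most runs thus repeat members of 1 family, and such copies share sequence. Lrrc8b, a subunit of a volume-regulated channel in the Gbp run, is no member of that family and had 7.77, 8.98 and 8.68 CPM in Malt1_WT libraries, against 2.88, 3.63 and 4.9 CPM in Vector libraries (log2 fold change 1.16 ± 0.16 (SE), adjusted p = 6.45e-07). Among shorter runs were Cxcl3, Cxcl1 and Cxcl2 on chromosome 5, Lst1, Tnf and Lta on chromosome 17, and Krt20, Krt23, Krt16 and Krt17 on chromosome 11.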

How the data were processed

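Libraries were made with a directional kit and sequenced from both ends, per the labels' protocols. The authors trimmed reads with Trim Galore 0.6.0, aligned them with STAR 2.7.3a to GRCm38.p6 and counted them with featureCounts 1.6.3, per the submitters' processing notes. The deposited table holds raw counts per gene, which the labels' replicate names tie to the 15 libraries. The strand setting of the counting is not given in the sources used here. Of 55571 genes, 22982 had no count.

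Genes with too few counts were dropped with filterByExpr, applied to all 15 libraries in their 5 groups. The remaining 14571 were scaled by TMM and fitted in edgeR 4.0.16 (R 4.3.3) with robust quasi-likelihood, 1 mean for each of the 5 groups and no covariate, and Malt1_WT was tested against Vector, two-sided. P-values were adjusted by Benjamini-Hochberg over all tested genes. CPM are per 1000000 of the scaled totals, and RPKM divide these by summed exon length (GENCODE M21, matched for 14568 genes). Replicate counts differed by 2.34 to 7.05 times the sampling variance per gene, so no library was counted as a copy of another. Library totals, given with the groups, set the counting error of low genes. The fitting code was tested on simulated data.

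Named genes were taken by rule: Malt1, the 10 largest rises and falls of at least 5 CPM, the 8 largest gains and losses in CPM, genes with 0 counts in every library of 1 group and at least 0.5 CPM in the other, and, from each list, up to 4 rises and 3 falls of at least 2 CPM, or its most abundant members. Some genes that meet the rule are not reported here. The rule added ligands that changed at least 2-fold and their receptors, the extreme families of at least 8 tested genes and the longest runs. Members and lists were chosen with earlier results of these data known. RefSeq promoters were the first window of each gene. Alternatives were RLE and upper-quartile scaling, no filter, the 6 libraries alone, a replicate block, limma-voom (limma 3.58.1), DESeq2 1.42.0 and leaving out each library.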

Additional observations from a re-analysis of the deposited data

How the results depend on the processing

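Every alternative kept each count of calls over all genes within 1.5 times the reported one. The number of called genes was 7947 under RLE scaling, 7994 under upper-quartile scaling, 7923 of 32589 tested with no filter on low counts, 7749 of 13514 tested with the 6 libraries alone, 7963 by limma-voom and 7611 by DESeq2, against 7997 in the fit reported. Leaving out each library in turn gave 7248 to 7853. Genes at least 2-fold higher numbered 1044 to 1323 and those at least 2-fold lower 463 to 583 over all settings. The log2 fold change of Malt1 stayed between 2.81 and 2.90. The scalings moved the median gene by at most 0.012 on the log2 scale. Whether the replicate numbers pair the samples was not tested, and the labels state no pairing. Same-numbered libraries had correlations of 0.09, 0.07 and -0.01 in their deviations from the group means. Libraries with different numbers had correlations between -0.09 and 0.02, so 0.09 and 0.07 were the highest. A replicate block gave 8284 calls. Of 512 named genes, 501 were called, none reversed under any setting and 28 crossed the threshold under at least 1, among them Bcl3, Kitl, Hoxc4, Cenpj, Hars, Lpar2, Tgfbr1 and Col3a1. Without Malt1_WT replicate 3, the adjusted p of Bcl3 was 0.0514 by edgeR. Runs of at least 3 called neighbours numbered 308 when no fold was required, and 37 at 2-fold. Some counts of few calls within a list moved by more than 1.5 times, such as the lower TGF-beta and BMP receptors. Depth limits the genes near 0 in 1 group, whose folds rest on a few counts.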

Other observations

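Beyond protein-coding genes, transcripts of the mitochondrial genome did not move together. Of 8 tested mitochondrial tRNA genes 5 were called lower, all by at least 2-fold, and none higher, with a median log2 fold change of -1.28. The 2 mitochondrial ribosomal RNA genes were both lower (median -0.74), while mt-Co1, a subunit of cytochrome oxidase, was among the largest gains in CPM, with 13550.1, 13639 and 13411 CPM in Malt1_WT libraries, against 10677, 10269.5 and 10883 CPM in Vector libraries (log2 fold change 0.35 ± 0.03 (SE), adjusted p = 1.48e-10). Among 703 tested processed pseudogenes 44 (6.26%) were higher and 95 (13.5%) lower (median -0.21), both under the 27.2% and 27.7% of all tested genes, and reads of such copies may come from their parent genes. Of 450 lincRNA genes 82 (18.2%) were higher and 48 (10.7%) lower (median 0.07).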
